A study of Mus musculus with 10 samples.

Results

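Glycolysis and lactate export were followed through 10 genes, namely Slc2a1, Hk2, Aldoa, Tpi1, Pgk1, Eno1, Pkm, Ldha, Slc16a3 and Pdk1. The genes were chosen by name for their place in the pathway, with earlier results of these data known. Counts of members that moved alike therefore describe these genes and are not independent evidence. Each gene matched 1 of the 77175 entries of a bulk RNA sequencing count table. All 10 were abundant enough to be tested, among 15526 tested genes. The cells were of the B16-F10 mouse melanoma line. The OVA groups were B16-F10-OVA, whose genotype is given as B16-F10 with pLV[Exp]-Neo-EF1A>{ovalbumin}, a lentiviral vector in which the EF1A promoter drives the model antigen ovalbumin. OVA cells were taken after 24 h with 50 ng/ml interferon gamma (IFN-γ; 3 libraries) or untreated (2 libraries). The WT groups were B16-F10 cells without the vector, likewise treated with IFN-γ (3 libraries) or untreated (2 libraries). The labels do not say whether the OVA line is 1 clone, and they do not say that replicates were separate cultures, so that p-values measure the spread between these libraries, which may be technical.

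Glycolysis splits glucose into pyruvate in the cytosol and yields ATP without oxygen. Tumour cells often run it fast even when oxygen is present, and reduce the pyruvate to lactate, which leaves the cell together with a proton. Slc2a1 encodes GLUT1, which carries glucose into the cell, and Hk2 encodes hexokinase 2, which traps it as glucose 6-phosphate. Aldoa, Tpi1, Pgk1, Eno1 and Pkm encode enzymes of the later steps, Ldha the lactate dehydrogenase subunit that favours lactate formation, and Slc16a3 the lactate exporter MCT4. Pdk1 encodes a kinase that inhibits pyruvate dehydrogenase and so limits the use of pyruvate in the mitochondria. Many of these genes are known targets of the hypoxia-inducible factor HIF-1, which binds the DNA core ACGTG or GCGTG. Several are also known targets of MYC, which binds CACGTG.

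The sequence before the start site was read from RefSeq on build GRCm38.p6, because members that move together may share letters there. The count table itself was made on another build, and the windows serve as a description only. A window held the 250 bases before a start, and the 10 genes had 17 such windows. Shown are the windows of Slc16a3 and of Hk2, the member that rose with IFN-γ. Slc16a3 was the member with the widest range, as highest over lowest level. The windows of Ldha (the first of its 2 windows) and Pgk1 are also shown. Each ACGTG is in capitals, on either strand, so that CACGT is also marked.
Slc16a3, chr11:120948817-120949066, plus strand: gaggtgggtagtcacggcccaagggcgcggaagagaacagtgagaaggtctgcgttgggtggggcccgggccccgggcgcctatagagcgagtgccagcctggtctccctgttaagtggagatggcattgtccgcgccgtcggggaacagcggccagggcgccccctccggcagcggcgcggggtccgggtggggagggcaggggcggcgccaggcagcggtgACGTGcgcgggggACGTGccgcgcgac
Hk2, chr6:82774455-82774704, minus strand: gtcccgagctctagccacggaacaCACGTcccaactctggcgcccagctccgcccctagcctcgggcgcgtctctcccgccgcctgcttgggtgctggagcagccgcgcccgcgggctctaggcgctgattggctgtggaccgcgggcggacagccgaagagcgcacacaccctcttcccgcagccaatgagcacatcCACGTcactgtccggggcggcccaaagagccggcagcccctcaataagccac
Ldha, chr7:46845554-46845803, plus strand: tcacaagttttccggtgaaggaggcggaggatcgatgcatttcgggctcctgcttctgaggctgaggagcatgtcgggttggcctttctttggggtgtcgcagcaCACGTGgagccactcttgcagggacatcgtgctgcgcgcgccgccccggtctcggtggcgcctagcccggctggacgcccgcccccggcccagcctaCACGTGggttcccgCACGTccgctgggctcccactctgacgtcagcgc
Pgk1, chrX:106186850-106187099, plus strand: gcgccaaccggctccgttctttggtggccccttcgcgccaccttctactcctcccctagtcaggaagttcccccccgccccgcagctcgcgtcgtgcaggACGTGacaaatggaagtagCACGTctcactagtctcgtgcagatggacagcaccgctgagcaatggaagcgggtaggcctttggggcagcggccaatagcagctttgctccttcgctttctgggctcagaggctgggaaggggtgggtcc

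Slc16a3 had 2 matches, which began 27 and 14 bases before the start. Hk2 had 2 matches, which began 226 and 52 bases before it, and Pgk1 had 2, which began at 150 and 131 bases. Ldha had 5 matches in this window, 4 of which lay in 2 copies of CACGTG, where the core reads on both strands and is counted on each. The second Ldha window, chr7:46846832-46847081, held none. Over all windows of a gene, 7 of 10 members held ACGTG, as did 18.5% of the 27025 genes with a window, tested here or not. Members had more windows per gene, and by window the shares were 47.1% and 16.6%. Slc2a1, Aldoa and Pkm were the other 3 members with a match, while no window of Tpi1, Eno1 or Pdk1 held these letters. Only ACGTG was searched for. GCGTG, the other form of the HIF-1 core, was not counted, and it is present in a window of Eno1 and of Pdk1. CACGTG was found in 1 of 10 members, Ldha, against 6.86% of all genes. TTCNNNGAA, the STAT site, and a form of the interferon response element, GAAA repeated after a gap of 2 bases, were found on neither strand of any member window, against 8.13% and 3.46% of all genes. The member windows had a median GC content of 66.4%, against 52.4% for all 32851 windows. A match shows only that the letters are present.

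Total counts ran from 17728722 to 19642533 per library, and the 10 members took 1.18% to 1.71% of them. The first principal component of the 2000 most variable genes held 78.8% of the variance and separated treated from untreated libraries. Replicates differed by more than counting noise in each group, and no 2 libraries were identical. Irf1, a factor that interferons induce and that drives their target genes, was higher in IFN-γ cells by 5.99 log2 units in OVA and 6.04 in WT. All 7 melanocyte markers were present, with summed levels of 23064 to 24466 CPM (the share of a library's counts that fall on a gene, per 1e+06 counts, scaled with TMM factors) over the 10 libraries. Of 7 T cell markers, 6 were below 1 CPM in every library and Cd3e and Cd2 were at 0. The other, Lck, was higher with IFN-γ by 1.26 log2 units in OVA and by 1.46 in WT, and the 7 summed to 3.31 to 4.07 CPM in treated and 1.59 to 1.89 CPM in untreated OVA cells, and to 3.08 to 3.80 CPM in treated and 1.23 to 1.32 CPM in untreated WT cells. Of 7 macrophage markers, 6 were likewise below 1 CPM, with Ptprc and Cd14 at 0. The other, Cd68, was higher with IFN-γ by 0.70 in OVA and by 0.81 in WT, and the 7 summed to 3.24 to 3.56 CPM in treated and 2.16 to 2.95 CPM in untreated OVA cells, and to 3.46 to 5.04 CPM in treated and 2.37 to 3.24 CPM in untreated WT cells. Fibroblast markers summed to 9.41 to 10.6 CPM in OVA cells with IFN-γ, 15.0 to 17.0 in untreated OVA cells, 12.6 to 13.9 in WT cells with IFN-γ and 19.2 to 20.3 in untreated WT cells. By group means, this order of the groups is also that of Eno1, Pgk1 and Ldha. Of the 7 fibroblast markers, 3 were below 1 CPM in every library. Pdgfrb, the most abundant, kept the order of the sum, with 4.88 CPM in treated and 9.41 in untreated OVA cells, and 8.37 in treated and 12.8 in untreated WT cells. Col1a1, Col1a2 and Pdgfra did not keep it. The part of these markers in the results was not tested. In bulk RNA, fewer cells that express a gene and less RNA per cell cannot be told apart.

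The members spanned a wide range of abundance. Per kilobase of merged exon, the mean over the 10 libraries was 899.9 CPM for Pgk1, 749 for Aldoa, 671 for Eno1, 603 for Pkm, 507 for Tpi1 and 428 for Ldha. Hk2 followed at 62.5 CPM per kilobase, then Slc16a3 at 23.1, Slc2a1 at 18.6 and Pdk1 at 9.63. The enzymes from aldolase to lactate dehydrogenase were thus the abundant ones. The transporters and kinases that begin, end or divert the pathway were lower, though only relative to these. Pdk1 and Slc2a1, the lowest members in CPM, still averaged 74.9 and 65.3 CPM. The order depends on the length used, which joins all annotated exons (5.379 kb for Eno1, 2.911 for Aldoa and 2.244 for Pgk1). In CPM not divided by length, Eno1 stood above Aldoa in each group, at 2704 against 1942 in treated OVA cells. In treated WT cells it had 3395 against 2315 CPM. Per kilobase, the position of Eno1 changed with treatment. In cells with IFN-γ it stood below Aldoa, at 503 against 667 CPM per kilobase in OVA and 631 against 795 in WT, and its libraries overlapped those of Pkm per kilobase in WT. In untreated cells it stood above Aldoa, at 797 against 718 in OVA and 858 against 835 in WT. Slc16a3 stood above Slc2a1 except in OVA cells with IFN-γ, where they averaged 12.7 and 15.1 CPM per kilobase.

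**Figure D1:**
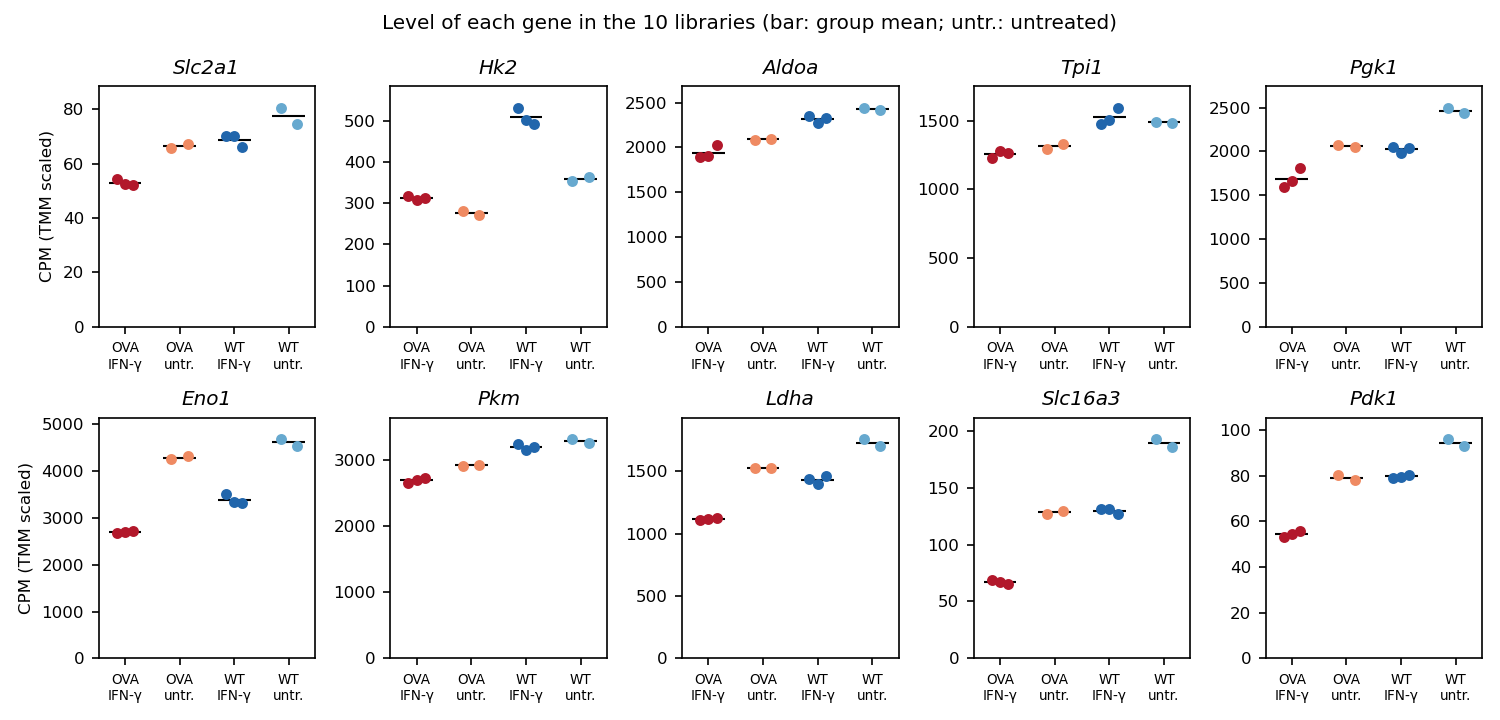
Level of each of the 10 genes in CPM (TMM scaled, axis from 0) in the 10 libraries, 1 point per library, with a bar at the group mean; untr. stands for untreated. OVA cells with IFN-γ were lowest for every gene but Hk2. Slc16a3 had the widest range as highest over lowest level (2.94), from 65.6 to 193 CPM.

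IFN-γ lowered most of the pathway's transcripts in both lines while it raised Hk2. In OVA cells 8 of 10 members fell, 1 rose and 1 was not called. In WT cells 6 fell, 1 rose and 3 were not called. The called falls ran from 47.7% for Slc16a3 to 7.08% for Aldoa, both in OVA cells. Calls are from edgeR's quasi-likelihood test at a Benjamini-Hochberg adjusted p under 0.05 over all tested genes. IFN-γ changed much of the transcriptome, so these counts stand against a high background: 48.8% of all tested genes were called in OVA (25.9% rose and 22.9% fell) and 44.2% in WT (24.5% rose and 19.7% fell). The median log2 change of the members was -0.31 in OVA and -0.21 in WT, against 0.00 and 0.01 for all tested genes. Libraries did not overlap for 9 lower members and 1 higher member in OVA (31.7% and 34% of tested genes), and for 8 lower and 1 higher in WT (29% and 33%).

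At the entry of the pathway the members moved in opposite directions. Slc2a1 had 54.3, 52.6 and 52.2 CPM in OVA cells with IFN-γ, against 65.8 and 67.4 CPM in untreated OVA cells. WT cells had 70.0, 70.0 and 66.0 CPM with IFN-γ, against 80.4 and 74.5 CPM untreated. Treated libraries were below untreated ones in each line, and the treated WT libraries reached about the level of untreated OVA cells. Slc2a1 fell by 0.33 log2 units in OVA (SE 0.047, adjusted p = 2.09e-05, edgeR) and by 0.17 in WT (SE 0.045, adjusted p = 0.00455); without the first untreated WT library the WT value was -0.11 and no longer called (adjusted p = 0.127).

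Hk2 had 316, 308 and 312 CPM in OVA cells with IFN-γ, against 281 and 271 CPM in untreated OVA cells. In WT cells it had 531, 501 and 492 CPM with IFN-γ, against 353 and 363 CPM untreated. Treated libraries were the higher ones in both lines, and all OVA libraries stayed below all WT libraries. Hk2 rose by 0.18 log2 units in OVA (SE 0.035, adjusted p = 0.000473, edgeR) and by 0.50 in WT (SE 0.035, adjusted p = 2.42e-09). Its relative Hk1, the hexokinase found in most tissues, fell instead, by 0.49 in OVA and by 0.35 in WT.

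Among the enzymes of the later steps, Eno1, the enolase that forms phosphoenolpyruvate, showed the largest change. It had 2675, 2710.2 and 2728 CPM in OVA cells with IFN-γ, against 4256 and 4319.6 CPM in untreated OVA cells. In WT cells it had 3511, 3349 and 3324 CPM with IFN-γ, against 4681 and 4549.8 CPM untreated. The treated libraries of either line lay below the untreated libraries of both lines. Eno1 fell by 0.67 log2 units in OVA (SE 0.027, adjusted p = 1.16e-12, edgeR) and by 0.44 in WT (SE 0.027, adjusted p = 3.76e-10).

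Pgk1, which makes the first ATP of the pathway, had 1594, 1657 and 1809 CPM in OVA cells with IFN-γ, against 2075 and 2054 CPM in untreated OVA cells. In WT cells it had 2050.0, 1983 and 2041 CPM with IFN-γ, against 2496 and 2436 CPM untreated. The fall was of like size in both lines, 0.29 log2 units in OVA (SE 0.039, adjusted p = 8.41e-06, edgeR) and 0.28 in WT (SE 0.039, adjusted p = 1.21e-05). Counts at a near-identical copy, Pgk1-rs7, came to 4.02% of those of Pgk1, so reads could be split between them. Adding them to Pgk1 changed no call.

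Aldoa, Tpi1 and Pkm, which encode aldolase, triosephosphate isomerase and pyruvate kinase, moved by less. Aldoa ran from 1898 to 2026 CPM in OVA cells with IFN-γ and from 2088 to 2093 CPM untreated, with 2270.5 to 2346 CPM in treated and 2421 to 2440.0 CPM in untreated WT cells. It fell by 0.11 log2 units in OVA (SE 0.029, adjusted p = 0.0066, edgeR), a call lost without the second untreated OVA library (adjusted p = 0.052), and in WT its value of -0.07 was not called (adjusted p = 0.0618). That WT value did pass under other settings, with adjusted p of 0.0061 with library size scaling, 0.013 with a stricter filter, 0.0107 with the replicate block and 0.0217 with DESeq2, and in 6 of 10 fits that left out a library. Pkm ran from 2664 to 2733 CPM in OVA cells with IFN-γ and from 2916 to 2933 CPM untreated, with 3161 to 3250.2 CPM in treated and 3262 to 3317 CPM in untreated WT cells. It fell by 0.11 in OVA (adjusted p = 0.000675) and was not called in WT, where the value was -0.04 with a 95% interval from -0.09 to 0.01, though called with library size scaling (adjusted p = 0.0178) and a stricter filter (adjusted p = 0.0461).

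Tpi1 passed the test in neither line, although it was called lower in OVA with the replicate block (-0.08, adjusted p = 0.0255, edgeR) and without the third treated WT library (adjusted p = 0.0306). It ran from 1231 to 1282 CPM in OVA cells with IFN-γ and from 1294 to 1334 CPM untreated, with 1474 to 1593 CPM in treated and 1484 to 1494 CPM in untreated WT cells. Its log2 change was -0.06 in OVA (95% interval -0.13 to 0.01) and 0.03 in WT (-0.03 to 0.10). Only the WT libraries of Tpi1 overlapped between treatments among the 10 members. The exons of Slc2a1, Aldoa and Tpi1 overlap a gene on the other strand over 2.99%, 0.859% and 1.24% of their length, and those of Pkm a gene on the same strand over 15.3% (GENCODE M21). No source used here gives the strand setting of the counting, and reads in those stretches are uncertain.

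At the lactate end, Ldha had 1107, 1119.5 and 1124 CPM in OVA cells with IFN-γ, against 1524 and 1531 CPM in untreated OVA cells. In WT cells it had 1438, 1400.1 and 1462 CPM with IFN-γ, against 1757 and 1703 CPM untreated. Treated libraries were lower in each line. Ldha fell by 0.45 log2 units in OVA (SE 0.026, adjusted p = 2.59e-10, edgeR) and by 0.27 in WT (SE 0.026, adjusted p = 2.28e-07).

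Slc16a3, the lactate exporter, had 69.2, 67.2 and 65.6 CPM in OVA cells with IFN-γ, against 127 and 129.9 CPM in untreated OVA cells. In WT cells it had 131, 132 and 127 CPM with IFN-γ, against 193 and 186 CPM untreated. Treated WT libraries and untreated OVA libraries overlapped, and treated OVA cells were far below both. Slc16a3 fell by 0.93 log2 units in OVA (SE 0.037, adjusted p = 1.26e-12, edgeR), the largest fall among the members, and by 0.54 in WT (SE 0.034, adjusted p = 6.72e-10).

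Pdk1 had 53.0, 54.5 and 55.7 CPM in OVA cells with IFN-γ, against 80.2 and 77.9 CPM in untreated OVA cells. In WT cells it had 79.0, 79.6 and 80.5 CPM with IFN-γ, against 95.9 and 92.9 CPM untreated. As with Slc16a3, treated WT and untreated OVA libraries overlapped. Pdk1 fell by 0.54 log2 units in OVA (SE 0.041, adjusted p = 7.53e-09, edgeR) and by 0.24 in WT (SE 0.038, adjusted p = 5.29e-05).

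**Figure D2:**
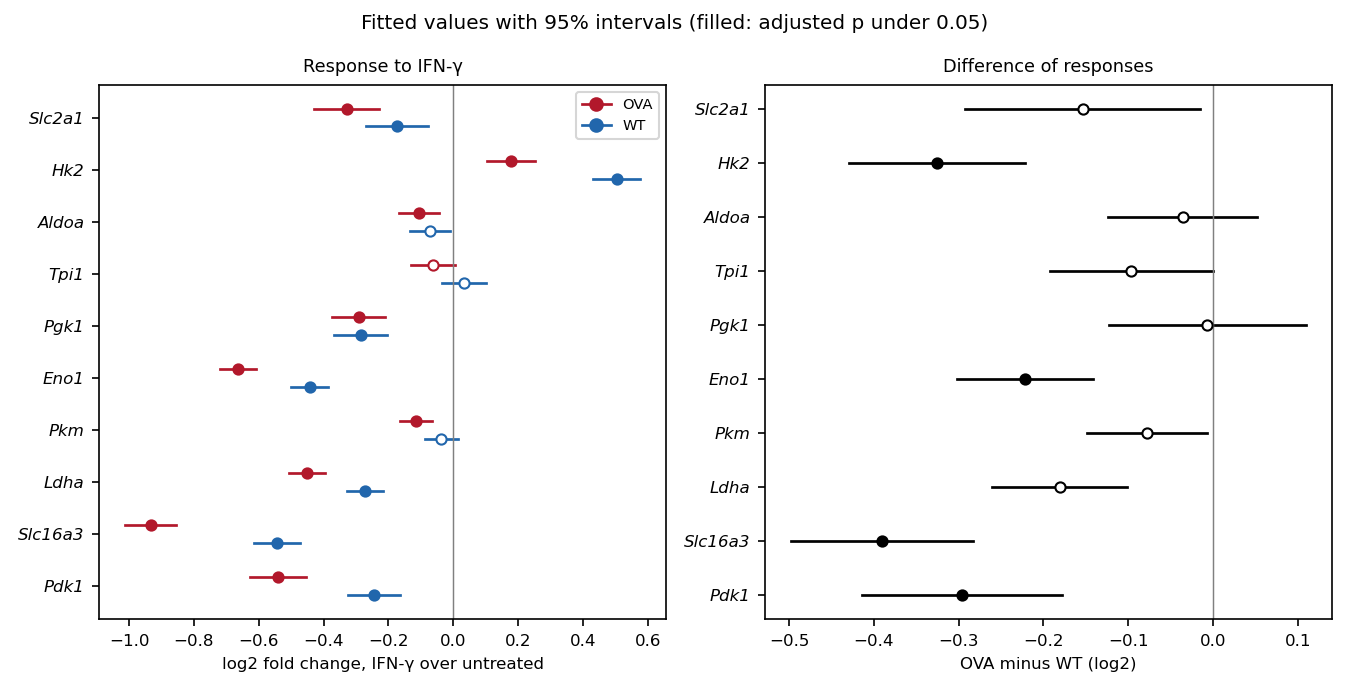
Left, log2 fold change of IFN-γ over untreated for each gene in OVA and WT cells. Right, the OVA response minus the WT response. Lines are 95% intervals and filled points passed an adjusted p of 0.05. Slc16a3 lies farthest left in both panels, at -0.93 in OVA, -0.54 in WT and -0.39 for the difference, and Hk2 alone lies right of zero in both lines with a called change.

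The series set the 2 lines side by side, and the interaction term tests whether they responded differently. The response was lower in OVA for 4 of 10 members, Slc16a3, Hk2, Pdk1 and Eno1, and higher for none, at a background of 0.341% of all tested genes called, 0.264% lower and 0.0773% higher. The difference (OVA minus WT) was -0.39 log2 units for Slc16a3 (SE 0.051, adjusted p = 0.0013, edgeR), -0.33 for Hk2 (SE 0.049, adjusted p = 0.00431), -0.30 for Pdk1 (SE 0.056, adjusted p = 0.0267) and -0.22 for Eno1 (SE 0.038, adjusted p = 0.014). For Slc16a3, Pdk1 and Eno1 this was a deeper fall in OVA, and for Hk2 a smaller rise. Ldha missed the threshold at -0.18 (SE 0.038, adjusted p = 0.052).

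The remaining 5 differences were not called. They ran from -0.15 for Slc2a1 (95% interval -0.29 to -0.01) to -0.01 for Pgk1 (-0.12 to 0.11), with Tpi1 at -0.10, Pkm at -0.08 and Aldoa at -0.04. All 10 were below 0, with a median of -0.17 against -0.01 for all tested genes. The count of 4 was the least stable of those given here. It fell to 2 at an adjusted p under 0.01, and to 2 without the first or second untreated WT library or the second untreated OVA library, and to 1 without the first untreated OVA library. The call of Slc16a3 alone remained whichever library was left out, while that of Pdk1 was lost in 7 of 10 such fits.

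Between the lines, every member was lower in OVA than in WT. Among treated cells 10 of 10 passed the test, at a background of 14.4% of all tested genes called, 7.99% lower and 6.36% higher. With library size scaling in place of TMM, all 10 still passed, while over all genes the calls turned from 1241 lower and 988 higher to 965 lower and 1448 higher. Among untreated cells 10 of 10 passed, at a background of 5.53% called, 2.55% lower and 2.98% higher. The median difference of the members was -0.34 log2 units under IFN-γ and -0.22 untreated, against 0.00 and 0.01 for all tested genes. In neither condition did the libraries of the 2 lines overlap for any member, and all were lower in OVA. Of all tested genes, 16% were lower and 15.1% higher in OVA without overlap under IFN-γ, and 23.3% lower and 26.4% higher untreated. These 2 comparisons use different libraries, but each shares its libraries with the IFN-γ responses above.

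Under IFN-γ Slc16a3, Hk2 and Pdk1 differed most. From the library values given above, Slc16a3 was lower in treated OVA than in treated WT cells by a log2 difference of -0.95 (SE 0.034, adjusted p = 1.21e-11, edgeR), and by -0.56 among untreated cells (SE 0.038, adjusted p = 8.4e-08). For Hk2 the values were -0.70 under IFN-γ (adjusted p = 1.48e-10) and -0.38 untreated (adjusted p = 1.24e-05), and for Pdk1 -0.55 (adjusted p = 2.83e-08) and -0.25 (adjusted p = 0.00136). Slc2a1 differed by -0.37 under IFN-γ (adjusted p = 1.57e-05) and by -0.22 untreated (adjusted p = 0.015).

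The abundant enzymes differed by less than Slc16a3, Hk2 and Pdk1 under IFN-γ, but Ldha (-0.36) was about level with Slc2a1 (-0.37). Among untreated cells their sizes overlapped those of the other members, with Pgk1 at the level of Pdk1 and above Slc2a1 in size. Under IFN-γ the differences of the abundant enzymes ran from -0.36 for Ldha and -0.33 for Eno1 to -0.25 for Aldoa and Pkm. Tpi1 was at -0.28 and Pgk1 at -0.26. Among untreated cells they ran from -0.26 for Pgk1 to -0.11 for Eno1, with Aldoa at -0.22, Tpi1 and Ldha at -0.18 and Pkm at -0.17. The untreated difference of Eno1 was close to the threshold (adjusted p = 0.0439, edgeR) and was lost in 6 of 10 fits that left out a library. Those of Slc2a1 and Tpi1 were lost in 3 and 2 such fits. The number of untreated calls was then between 7 and 10, while under IFN-γ it was 10 in every fit.

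**Figure D3:**
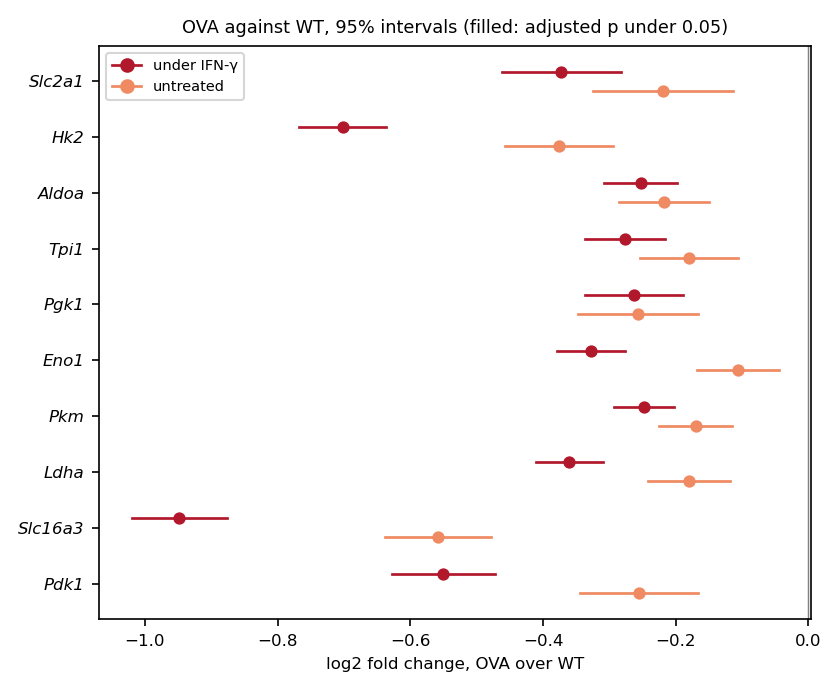
Log2 fold change of OVA over WT for each gene under IFN-γ and untreated, with 95% intervals; filled points passed an adjusted p of 0.05. All 20 points are filled and left of zero, from -0.95 for Slc16a3 under IFN-γ to -0.11 for Eno1 untreated.

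Summed over the 10 members, the level was 11661, 11860.1 and 12170.0 CPM in OVA cells with IFN-γ and 14707 and 14810.1 CPM in untreated OVA cells. It was 14881, 14453 and 14721 CPM in WT cells with IFN-γ and 16908 and 16573 CPM in untreated WT cells. The sum is carried by the abundant enzymes. Treated WT and untreated OVA libraries overlapped, and treated OVA libraries lay below all others.

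The shape of the profile over the 4 groups was compared by the root mean square difference of centred log2 group means. Aldoa and Pkm were the closest pair (0.0182 log2 units). Slc2a1 was closest to the mean profile of the members (0.0243), and Slc16a3 (0.327) and Hk2 (0.31) were farthest from it, Slc16a3 by its wider range and Hk2 by its high level in treated WT cells and its low level in untreated OVA cells. Among 9331 other genes with a mean of at least 10 CPM, those most like the mean profile were Bnip3l (0.0226), Pfkl (0.029), Gm14391 (0.0294), Dubr (0.0368), Fam162a (0.0399) and Kdm4b (0.0405).

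Slc16a3, Hk2 and Ldha have each a close relative with another expression pattern, and the log2 ratio within each pair was compared over the libraries. Slc16a1 encodes MCT1, a lactate transporter that works in both directions. Slc16a3 over Slc16a1 was -0.94, -1.01 and -0.98 in OVA cells with IFN-γ, -0.25 and -0.18 in untreated OVA cells, -0.05, 0.04 and -0.15 in WT cells with IFN-γ, and 0.32 and 0.30 in untreated WT cells. The ratio, of CPM not divided by length, was lowest in treated OVA libraries, and all OVA libraries lay below all WT libraries. The ratio was lower with IFN-γ by a mean of -0.56 over the 2 lines (exact two-sided permutation within lines, p = 0.01, adjusted p = 0.025 over 6 tests). That p is the smallest that 100 arrangements allow. It was lower in OVA by -0.72 (exact permutation within treatments, p = 0.0167, the smallest that 120 arrangements allow, adjusted p = 0.025).

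Hk2 over Hk1 was 1.73, 1.71 and 1.67 in OVA cells with IFN-γ, 1.08 and 1.00 in untreated OVA cells, 1.94, 1.94 and 1.85 in WT cells with IFN-γ, and 0.99 and 1.12 in untreated WT cells. Untreated libraries of the lines overlapped and treated ones did not. IFN-γ raised the ratio by 0.76 (p = 0.01, again the smallest possible, adjusted p = 0.025, exact permutation). The difference of the lines, -0.11, did not pass (adjusted p = 0.0833, exact permutation). Hk1 was itself lower in OVA, by -0.50 under IFN-γ and -0.37 untreated.

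Ldhb encodes the lactate dehydrogenase subunit that favours pyruvate formation. Ldha over Ldhb was 3.53, 3.55 and 3.47 in OVA cells with IFN-γ, 3.71 and 3.72 in untreated OVA cells, 3.78, 3.82 and 3.85 in WT cells with IFN-γ, and 3.83 and 3.83 in untreated WT cells. In WT the treated libraries overlapped the untreated ones, and in OVA they were lower. The mean change with IFN-γ was -0.11 (adjusted p = 0.036, exact permutation), made up of -0.20 in OVA and -0.02 in WT, and the call was lost in 9 of 10 repeats that left out a library (adjusted p up to 0.12). The ratio was lower in OVA by -0.21 (p = 0.0167, again the smallest possible, adjusted p = 0.025, exact permutation).

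**Figure D4:**
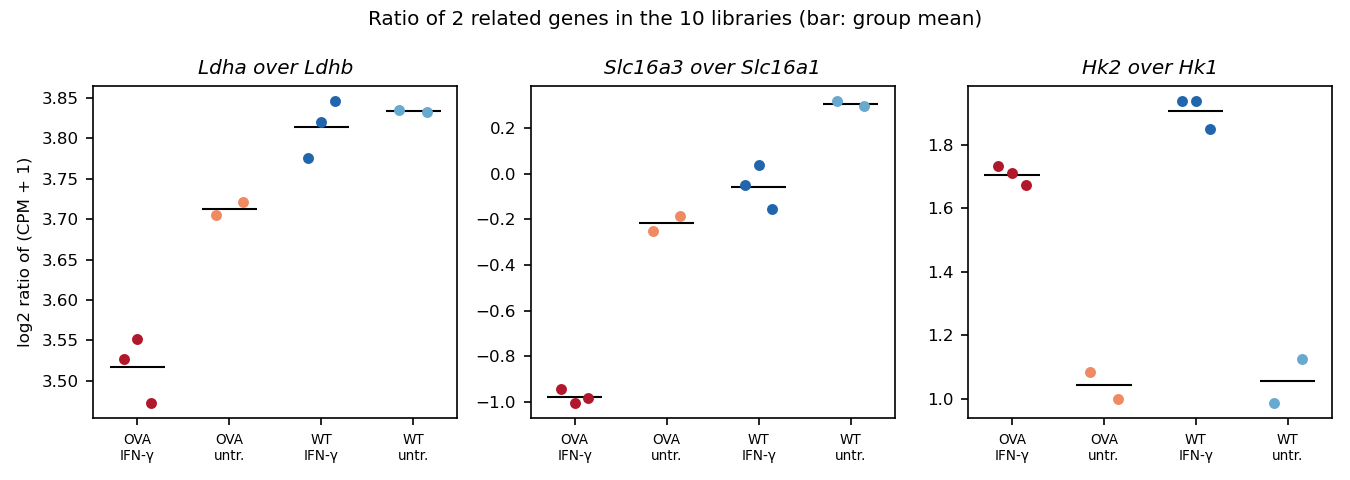
Log2 ratio of 2 related genes, each as CPM + 1, in the 10 libraries, 1 point per library with a bar at the group mean; the vertical axes differ and do not start at 0. Slc16a3 over Slc16a1 falls below -0.9 in OVA cells with IFN-γ, against about 0.3 in untreated WT cells, and Hk2 over Hk1 is above 1.6 in all treated libraries.

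The rest of glycolysis was described from a list of 22 other enzymes, 14 of them tested. With IFN-γ, 7 fell and 2 rose in OVA (median -0.24), and 8 fell and 2 rose in WT (median -0.14). Gpi1, the isomerase after hexokinase, fell by 0.47 in OVA and by 0.41 in WT, and Gapdh, whose product makes the substrate of Pgk1, fell by 0.23 and by 0.10. Eno2, the neuronal enolase, rose by 0.57 in OVA and by 0.36 in WT, opposite to Eno1. Pfkp, the platelet form of phosphofructokinase, was also higher with IFN-γ, as Hk2 was. It averaged 172 CPM in treated and 147 in untreated OVA cells, and 251 in treated and 206 in untreated WT cells. Pfkl, the liver form of phosphofructokinase, fell by 0.41 in OVA and was the 1 gene of this list whose response differed between lines (-0.22, adjusted p = 0.0275, edgeR). Between lines, 8 of 14 were lower in OVA and none higher, both under IFN-γ (median -0.24) and untreated (median -0.25). Pfkp differed by -0.54 under IFN-γ and -0.49 untreated, and Aldoc, a relative of Aldoa, by -0.49 and -0.48.

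Transport genes outside the members were mixed. Of 8 tested glucose transporters, 2 rose and 3 fell with IFN-γ in OVA, and 2 rose and 4 fell in WT. Slc2a6 averaged 41.1 ± 1.69 CPM in treated (SD, n = 3) and 11.1 ± 0.9 CPM in untreated OVA cells (SD, n = 2), a rise of 1.89 log2 units, and rose by 2.03 in WT. Its product, GLUT6, is known as a transporter of intracellular membranes. Among 5 monocarboxylate transport genes, Slc16a1 fell by 0.16 in OVA and by 0.18 in WT. Emb, a partner protein of these transporters, rose by 0.42 and by 0.44. Bsg, which brings MCT1 and MCT4 to the cell surface, fell by 0.11 in OVA, was not called in WT at -0.04, and was lower in OVA than in WT by -0.25 under IFN-γ and -0.19 untreated.

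Genes that take pyruvate into the mitochondria or control its use there were mixed. Of 13 tested, 6 rose and 3 fell with IFN-γ in OVA, and 1 rose and 3 fell in WT. Mpc1 and Mpc2, the subunits of the mitochondrial pyruvate carrier, rose by 0.38 and by 0.40 in OVA, and were not called in WT at 0.17 and 0.16. The difference of responses between the lines was called for none of the 13 genes. Pdk3, a relative of Pdk1, rose by 0.33 in OVA and by 0.22 in WT, and Pcx, pyruvate carboxylase, fell by 0.83 in OVA and by 0.59 in WT. Of 17 TCA cycle genes, 5 rose and 6 fell in OVA and 2 rose and 6 fell in WT. Between lines, 2 of these TCA genes were lower and 2 higher in OVA under IFN-γ, and 1 was lower untreated. Of 8 pentose phosphate genes, 2 rose and 3 fell with IFN-γ in each line.

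**Figure D5:**
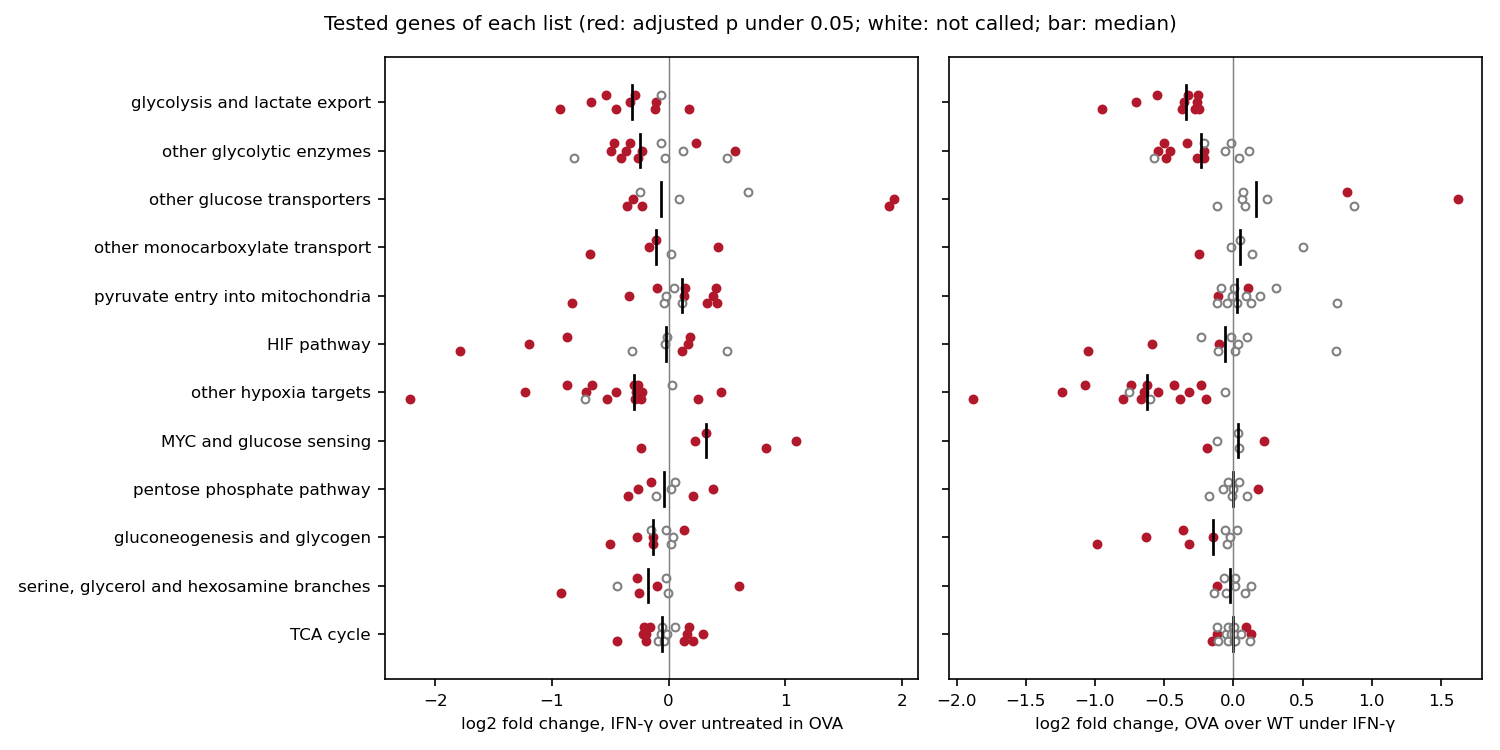
Log2 fold change of each tested gene by list, for IFN-γ over untreated in OVA (left) and OVA over WT under IFN-γ (right); red points passed an adjusted p of 0.05, white points did not, and bars are medians. In the right panel the medians of the members (-0.34), the other glycolytic enzymes (-0.24) and the other hypoxia targets (-0.63) lie left of zero, while that of the TCA cycle is at 0.00.

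The regulators known to act on these genes were read in the same libraries. Hif1a, the oxygen-regulated subunit of HIF-1, was not called with IFN-γ (-0.01 in OVA, adjusted p = 0.793; 0.08 in WT, adjusted p = 0.0516, edgeR). It was lower in OVA than in WT by -0.10 under IFN-γ (adjusted p = 0.0222) and was not called between untreated lines (-0.01). HIF-1 is controlled mainly through the stability of this protein, which transcript counts do not measure. Of 10 genes of the HIF pathway, 3 rose and 3 fell with IFN-γ in each line. Those that rose in both lines were Egln2, a further prolyl hydroxylase (0.18 in OVA and 0.19 in WT), Vhl, which recognises hydroxylated HIF subunits (0.17 and 0.21), and Arnt, the constant partner of the HIF subunits (0.12 and 0.12). Egln1 and Egln3, prolyl hydroxylases that mark HIF subunits for degradation and are themselves HIF targets, fell with IFN-γ, by 0.87 and 1.78 in OVA and by 0.54 and 1.27 in WT. Epas1, which encodes HIF-2α, fell by 1.20 in OVA and by 1.04 in WT. Myc fell by 0.24 in OVA and by 0.33 in WT and was not called between lines, at 0.04 under IFN-γ and -0.05 untreated. Of the 5 tested genes listed for MYC and glucose sensing, Myc was the 1 that fell with IFN-γ, and 4 rose in each line. Among these 4, Max rose by 0.84 in OVA and by 0.94 in WT, and Mlxip by 0.32 and by 0.45.

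Other hypoxia targets were mostly lower too. Of 17 tested, 13 fell and 2 rose with IFN-γ in OVA (median -0.30), and 10 fell and 2 rose in WT (median -0.16). Between lines, 14 were lower in OVA under IFN-γ (median -0.63) and 13 untreated (median -0.48), and none was higher. Bnip3, a mitophagy receptor, had 52.5, 54.2 and 54.3 CPM in OVA cells with IFN-γ, against 85.2 and 84.3 CPM untreated, and 123, 125 and 132 CPM in WT cells with IFN-γ, against 134 and 129 CPM untreated. Its response differed between lines by -0.60 (adjusted p = 6.75e-05, edgeR). Txnip, an inhibitor of glucose uptake through GLUT1 that is induced by glucose metabolites, was higher with IFN-γ, where Slc2a1 was lower, with 226 CPM in each OVA library with IFN-γ, against 107 and 105 CPM untreated. In WT it had 257, 253 and 266 CPM with IFN-γ, against 149 and 140.4 CPM untreated. It rose by 1.09 in OVA and by 0.84 in WT, with a larger response in OVA by 0.26 (adjusted p = 0.0274, edgeR), and was lower in OVA than in WT by -0.19 under IFN-γ and -0.45 untreated.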

How the data were processed

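RNA was measured in 10 libraries of 2 cell lines (poly-A selected, per the labels' protocols, which speak of tissue where other labels name cell lines). The deposited table holds the authors' raw read counts per Ensembl gene with symbols, from HISAT2 2.0.5 and featureCounts 1.6.0 on GRCm39, per the submitters' processing notes. Annotation release, strand setting and handling of reads with several matches: not given in the sources used here. Of 77175 entries, 21805 had no symbol and 39963 had no counts.

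The test on the counts was that of edgeR 4.0.16 (R 4.3.3, TMM factors, filterByExpr by group, 4 group means over all 10 libraries, quasi-likelihood F test, two-sided), with p adjusted by Benjamini-Hochberg over 15526 genes in each of 5 comparisons. SEs and 95% intervals come from that fit. The steps were tested on simulated data. Levels are CPM with TMM factors, per kilobase by GENCODE M21 exons, which are of another build. Ratios use log2 (CPM + 1).

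Same-numbered libraries correlated between -0.0721 and 0.0349 in their deviations from group means, so the numbers were not taken as pairs. Alternatives were library size scaling, no filter, a filter of 1 CPM in 5 libraries, a replicate block, only the groups compared, copies added, DESeq2 1.42.0, an adjusted p under 0.01, a pseudocount of 0.1 for ratios, and each library left out. The members and gene lists were chosen with earlier results of these data known. Other genes named are 8 chosen for their role, up to 4 called genes of largest change per list and comparison, and the 6 most like the members in profile; the text gives a part of them. Figures were drawn with matplotlib 3.10.9.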

Additional observations from a re-analysis of the deposited data

Results flagged for a closer look

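Among the members and listed genes, 11 were called to respond differently to IFN-γ in the 2 lines by the interaction term (edgeR, OVA minus WT, log2 units). Apart from Txnip, those outside the members are named because they passed this test, so their number is no result. Of all tested genes, 0.341% were called. Of the members these were Slc16a3 (-0.39), Hk2 (-0.33), Pdk1 (-0.30) and Eno1 (-0.22). Of the other glucose and hypoxia genes these were Bnip3 (-0.60), P4ha2 (-0.36), which encodes a subunit of collagen prolyl hydroxylase, Egln1 (-0.32), Gys1 (-0.29), the muscle form of glycogen synthase, Pfkl (-0.22) and, in the other direction, Txnip (0.26). Tap1, a peptide transporter of antigen presentation and an IFN-γ target, differed by -1.12, and was higher in untreated OVA than in untreated WT cells by 1.13. No explanation was tested.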

How the results depend on the processing

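The member with the fewest counts, Slc2a1, had 12004 over the 10 libraries, and each line had 2 untreated libraries. Which of depth and library number limits the precision more was not tested. The number of members whose response was lower in OVA was 4, then 2 at an adjusted p under 0.01 and 1 to 4 when a library was left out. Other counts of members stayed within 1.5 times the main count in all settings run. The replicate block gave 5 members in place of 4, with Ldha added (-0.18, adjusted p = 0.0143); DESeq2 and no filter also gave 5, and library size scaling 3, without Pdk1 (-0.27, adjusted p = 0.0586). Over all tested genes the responses differed for 12 higher and 41 lower, against 26 and 139 with the replicate block, 23 and 86 with DESeq2 and 79 and 205 with no filter; treated lines differed for 988 higher and 1241 lower genes, against 1448 and 965 with library size scaling and 553 and 890 with DESeq2; untreated lines for 463 and 396, against 274 and 281 with DESeq2. Leaving out a library moved these to 7 to 25 higher and 14 to 82 lower for the responses, 586 to 1124 and 795 to 1284 for treated lines, and 187 to 543 and 160 to 469 for untreated lines. Values close to 0 changed sign, and the ranges that follow are the lowest and highest log2 values when a library was left out. Tpi1 with IFN-γ in WT ran from -0.0104 to 0.0463. The difference of responses ran from -0.0566 to 0.0339 for Pgk1, from -0.0291 to 0.0193 for Ldhb and from -0.0233 to 0.0489 for Slc16a1. With library size scaling it was 0.0223 for Pgk1 and 0.0246 for Ldhb, and with the stricter filter 0.00543 and 0.00759. Hif1a ran from -0.0398 to 0.00438 with IFN-γ in OVA (0.00025 with no filter) and from -0.0351 to 0.0165 between untreated lines. Myc between lines ran from -0.000375 to 0.0832 treated and from -0.109 to 0.0140 untreated. Slc16a1 between treated lines ran from -0.0546 to 0.0185, and was 0.00658 with library size scaling. The change of Ldha over Ldhb with IFN-γ ran from -0.117 to -0.0967, and the line difference of Hk2 over Hk1 from -0.142 to -0.0728 (adjusted p from 0.04 to 0.217, exact permutation). The cause was not tested.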

Other observations

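Branches that leave glycolysis were also read. Of 9 tested genes of gluconeogenesis and glycogen, 5 were lower in OVA than in WT in each condition and none was higher. Pygl, the liver glycogen phosphorylase, differed by -0.99 under IFN-γ and -1.17 untreated, Gys1 by -0.63 and -0.34, and Gbe1, the glycogen branching enzyme, by -0.37 and -0.34. With IFN-γ, Gpd1, which makes glycerol 3-phosphate from a glycolytic intermediate, fell by 0.92 log2 units in OVA and by 1.04 in WT, while Psph, the last enzyme of serine synthesis, rose by 0.60 and by 0.41. G6pdx, which opens the pentose phosphate pathway, rose by 0.38 and by 0.42, and Tkt, transketolase of the same pathway, fell by 0.34 and by 0.26. All of these named changes passed an adjusted p of 0.05 (edgeR).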
